A study of Mus musculus with 6 samples.

Results

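The genes described here are the 9 core messengers of the insulin signalling cascade: the insulin receptor Insr, the adaptors Irs1 and Irs2, the phosphoinositide 3-kinase (PI3K) subunits Pik3ca and Pik3r1, the kinases Akt1, Akt2 and Mtor, and the transcription factor Foxo1. They were found by gene name in the authors' annotated expression tables and joined to the raw counts by gene identifier. All 9 names matched, out of 47643 genes in the tables, of which 29725 had a count in any library. RNA was sequenced from pancreatic islets of wild-type mice (WT, 3 libraries) and of mice carrying a miR-203 transgene specific to beta cells (TG, 3 libraries). Mice of both genotypes were 10 weeks old, labelled male, and had fasted for 12 h before the islets were taken. For the promoter that drives the transgene, the strain and the number of mice behind a library, nothing is given in the sources used here. P-values therefore measure the spread between libraries, which may be technical. WT 1, WT 2, TG 1 and TG 2 stand in a first deposited table, and WT 3 and TG 3 in a second. Values given for WT and for TG follow the order of libraries 1, 2 and 3.

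Insulin binds a receptor tyrosine kinase on the cell surface, which phosphorylates the IRS adaptors. These recruit PI3K, whose lipid product brings AKT to the membrane. AKT in turn activates the growth kinase mTOR and keeps FOXO1 out of the nucleus, where FOXO1 would switch on genes of fasting and stress resistance. Beta cells, which secrete insulin, also carry this cascade, and in them IRS2 is known for its role in growth and survival, while FOXO1 is known for its part in the response to metabolic stress.

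A microRNA lowers its targets mainly by pairing of its seed with messenger 3′ untranslated regions (UTRs), so the miR-203 sequence and the matches in the 9 genes are shown first. The mature strand lies at chr12:112130927-112130948 on the plus strand (RefSeq, GRCm38.p6), and the capitals mark its seed, bases 2 to 8.
mmu-miR-203-3p: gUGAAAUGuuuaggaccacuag
The reverse complement of this seed, CATTTCA, was found in the longest annotated 3′ UTR (GENCODE M21, GRCm38) of 6 of the 9 genes. Each match is printed 5′ to 3′ on the strand of the gene with the match in capitals. In order, the windows lie at chr8:10985099-10985128 (minus strand), chr1:82236487-82236516 (minus), chr3:32466774-32466803 (plus), chr7:27639429-27639458 (plus), chr7:27640444-27640473 (plus), chr3:52353095-52353124 (plus) and chr13:101680563-101680581 (minus).
Irs2: ctcctcctgtaCATTTCAagaagagcaggc
Irs1: atatcatgtttCATTTCAtacattgcctcc
Pik3ca: acaaacaaaagCATTTCAgttattaaaact
Akt2, first match: ataaagacactCATTTCAgaccagggccca
Akt2, second match: ctcacttcaaaCATTTCAcaaggttttgtt
Foxo1: gcttactgaacCATTTCAaactggttttct
Pik3r1: ctaggtggtatCATTTCAa
The matches in Irs2, Foxo1 and Pik3r1 are followed by an A, a context that often goes with stronger binding by Argonaute. A match followed by an A was present in 696 of the 13840 UTRs of tested genes, and its share among UTRs of like length was not counted. The Pik3r1 match ends at the last bases of its UTR. The UTRs of Insr (4747 bases), Akt1 (877 bases) and Mtor (823 bases) held no CATTTCA. A match is common in long UTRs. Among tested genes with a UTR between 0.8 and 1.25 times as long, 24.8% held one for Irs2, 48.1% for Irs1, 55.6% for Pik3ca, 28.3% for Akt2, 56.7% for Foxo1 and 46.5% for Pik3r1. For the genes without a match this share was 50.1% for Insr, 10.6% for Akt1 and 10.1% for Mtor, against 17.2% over all 13840 UTRs.

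Promoter windows of 300 bases, from 250 before to 50 after a RefSeq start, were at hand for 8 of the 9 genes, in 13 windows. They were searched on both strands for 3 forms of the core that forkhead factors such as FOXO1 bind: TGTTTAC, which 3.65% of all 32851 mouse promoter windows hold, TGTTTTG (6.28%) and TATTTTG (4.36%). Any of the 3 was present in 13.3% of windows. Irs1 and Irs2 are printed because IRS2 is a textbook target of FOXO1 and Irs2 had the highest ratio of TG to WT among the 9 genes. The capitals mark TGTTTTG, which begins 111 and 32 bases before the Irs1 start and 37 bases before the Irs2 start. The windows are chr1:82291390-82291689 and chr8:11008880-11009179, both on the minus strand of GRCm38.p6. In the authors' annotation Irs2 begins at chr8:11008458, so its RefSeq window lies wholly upstream of that start. The same holds for the window of Pik3ca.
Irs1 promoter: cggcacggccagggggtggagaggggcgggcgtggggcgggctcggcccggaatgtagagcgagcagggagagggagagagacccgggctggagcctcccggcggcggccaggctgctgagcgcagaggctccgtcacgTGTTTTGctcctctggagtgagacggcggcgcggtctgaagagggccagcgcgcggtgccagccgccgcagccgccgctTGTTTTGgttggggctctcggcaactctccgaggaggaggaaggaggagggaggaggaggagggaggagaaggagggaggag
Irs2 promoter: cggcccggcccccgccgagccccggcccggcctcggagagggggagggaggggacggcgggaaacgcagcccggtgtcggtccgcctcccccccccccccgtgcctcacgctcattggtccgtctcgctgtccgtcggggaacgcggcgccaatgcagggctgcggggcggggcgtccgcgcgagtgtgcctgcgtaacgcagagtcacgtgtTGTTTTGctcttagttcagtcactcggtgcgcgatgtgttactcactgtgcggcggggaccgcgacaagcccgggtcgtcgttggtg
At least 2 copies of TGTTTTG, as in the Irs1 window, were present in 0.493% of all windows. Repeats were counted only for TGTTTTG, the form seen in that window, so this share is no test of it. Of the other windows, the one of Akt1 at chr12:112674835-112675134 held TGTTTAC 161 bases before the start, and the one of Pik3r1 at chr13:101692581-101692880 held TATTTTG 151 bases before the start. The windows of Pik3ca, Akt2, Mtor and Foxo1 held none of the 3. A match of letters is no measurement of binding.

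Libraries held 20176456 to 27482339 counts. Reads on the Mir203 gene numbered 170, 164 and 150 in the TG libraries and 0 in WT 2 and WT 3, but 39 in the library labelled WT 1, so the fold changes of the 9 genes, the ratios between genes and the leading pathway genes are also given without that library. The libraries labelled WT 3 and TG 3 carried 25145 and 27240 reads of Xist and 16 and 1 reads of 4 Y-linked genes, which goes against the label male, while the other 4 carried at most 13 reads of Xist. This split is the same as that of the tables, so sex and table cannot be told apart. Islet identity was plain from the markers: all 9 beta-cell markers were detected, and their summed level, in CPM (counts scaled to a fixed library total after TMM adjustment), was 238000, 230400 and 116800 in WT and 56340, 224000 and 54580 in TG. The sums of TG 1 and TG 3 were below those of all other libraries, and TG 2 stood within the WT range. Within its own table TG 2 was below WT 1 and WT 2. Of single markers, Ins1, Ins2 and G6pc2 in TG 2 were within the WT range and Iapp above it. Mafa (249.3 CPM, lowest WT value 405.9), Ucn3 (139.0, 215.3), Slc2a2 (182.5, 228.9), Pdx1 (88.9, 140.8) and Nkx6-1 (304.0, 324.6) were below every WT library in TG 2. In TG 1 and TG 3, Ins1, Ins2, G6pc2, Mafa, Ucn3, Slc2a2 and Pdx1 were each below every WT library. Iapp was within the WT range in TG 1 (25390 CPM, lowest WT value 21530) and below it in TG 3 (19310). Nkx6-1 was below every WT library in TG 1 (298.4 CPM). In TG 3 it was at 708.7 CPM, above every WT library (highest 432.2). The sum is almost wholly Ins1, Ins2 and Iapp, so it says little on the other markers. Summed alpha-cell markers ranged from 18510 to 27060 CPM in WT and 22620 to 47790 in TG, PP-cell markers from 4409 to 7032 and 10760 to 31540, and duct markers from 689.2 to 1041 and 1492 to 2014. Delta-cell markers spanned 1951 to 3958 and 2479 to 4923 CPM, and acinar markers 134.8 to 7516 and 312.8 to 5363, lowest in the second table. Endothelial markers spanned 257.2 to 407.6 CPM in WT and 301.7 to 540.8 in TG, stellate markers 13.82 to 70.0 and 19.65 to 140.5, and macrophage markers 82.15 to 184.7 and 105.3 to 197.2. Such sums follow their most abundant genes. C1qa was the largest part of the macrophage sum in every library. Of 7 macrophage markers tested, 4 were higher and 3 lower in TG by sign, with Cd68 at 14.95 to 30.05 CPM in WT and 9.76 to 10.02 in TG. Most of the duct sum was Krt7, Spp1 and Tspan8, while Sox9 was at most 4.23 CPM. Lymphocyte markers (9.068 to 10.51 and 4.938 to 8.136), Schwann-cell markers (11.55 to 16.33 and 16.23 to 21.05) and adipocyte markers (5.691 to 11.5 and 6.891 to 15.64) were low. No marker with a row was at 0 in all libraries. In such bulk RNA, fewer cells of a type and less RNA per cell cannot be told apart.

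In TG islets none of the 9 genes differed from WT beyond the spread between libraries once p-values were adjusted over all genes. Irs2 came closest on the higher side, at 1.93 times its WT level, with TG 1 and TG 3 far above WT and TG 2 within it. Akt1, Akt2 and Mtor were the genes whose TG libraries were all below the WT libraries of the same table, at 0.785, 0.789 and 0.752 times WT, although Akt2 was not with RLE size factors. Insr, Pik3r1, Pik3ca and Foxo1 had fold changes between 0.99 and 1.08, and Irs1 one of 1.18. The test was edgeR's quasi-likelihood test, in which table and genotype both entered as terms, adjusted by Benjamini-Hochberg over 16072 tested genes at a threshold of 0.05. It called 0 of the 9 genes and 0.0% of all genes. Of the other tests, limma-voom called 0 of the 9 and 0.0% of all genes, and DESeq2 called 0 of the 9 and 4.97% of the 15137 genes to which it gave an adjusted p. The smallest adjusted p over all genes was 0.199. At an unadjusted p under 0.05, 1 of the 9 was higher in TG (Irs2) against 9.32% of all genes, and 2 were lower (Akt1 and Mtor) against 4.81%. Scaling to library totals alone split the calls over all genes at that unadjusted level into 1780 higher and 455 lower, against 1498 and 773. In 0 of the 9 genes was every TG library above the WT libraries of its table (13.0% of all genes), and in 3 every TG library was below (13.4%). With RLE size factors, the scaling of DESeq2, Irs2 joined the former, which made 1 (13.7% of all genes), and Akt2 left the latter, which made 2 (12.4%). The median log2 fold change was 0.00 over the 9 genes and -0.01 over all genes.

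**Figure D1:**
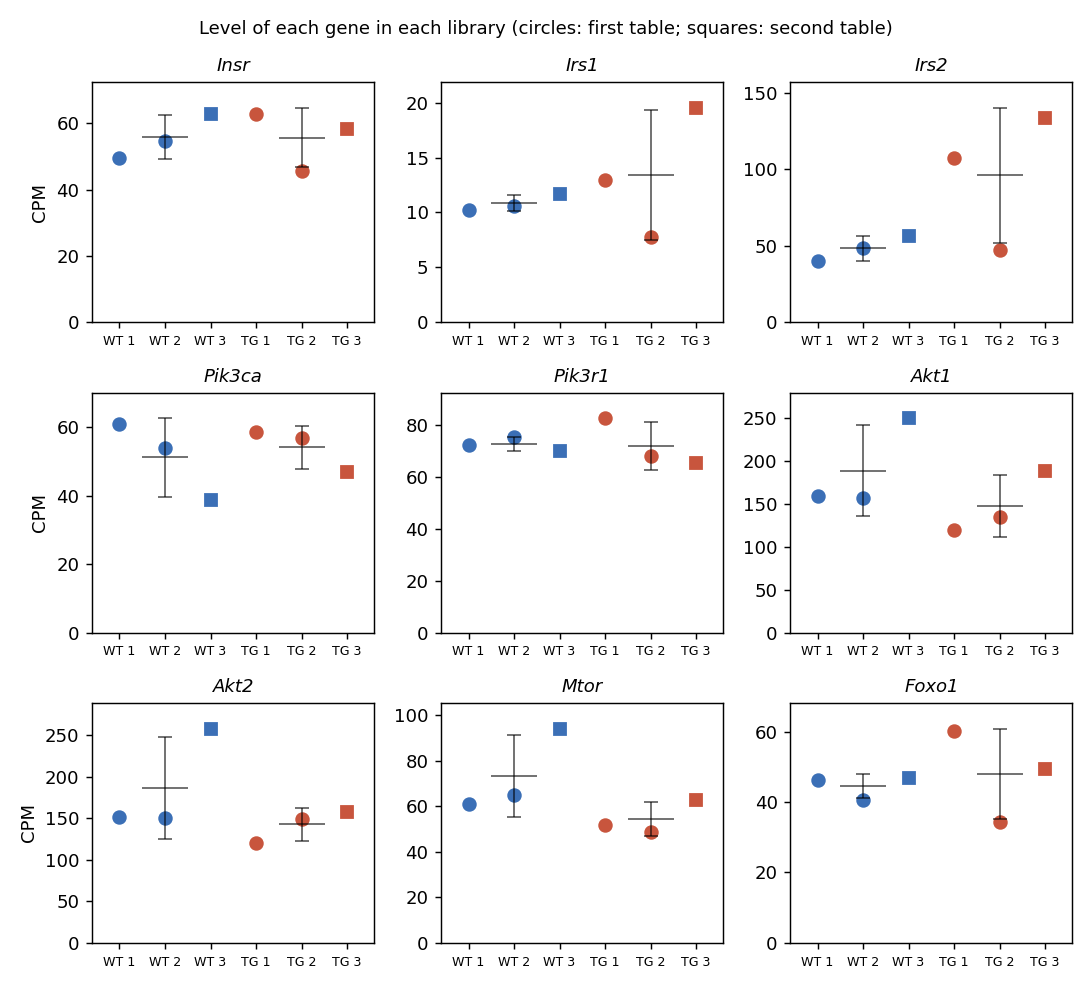
Level of each of the 9 genes in CPM (y axis, from 0) in each WT (blue) and TG (red) library, with circles for the first table, squares for the second, and a line with bars for the mean ± SD of 3 libraries. Irs2 stands at 107.1 and 133.1 CPM in TG 1 and TG 3 and at 47.3 in TG 2, inside the WT range of 40.3 to 56.5, while Akt1, Akt2 and Mtor have their highest value in WT 3.

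Insr encodes the insulin receptor (ENSMUSG00000005534, chr8:3122061-3279617, minus strand, GRCm38). It stood at 49.7, 54.8 and 62.9 CPM in WT and at 62.9, 45.7 and 58.5 CPM in TG. The groups overlapped fully, with means of 55.8 ± 6.63 and 55.7 ± 8.93 CPM (SD, n = 3). The log2 fold change was 0.00 with a standard error (SE) of 0.159, and its sign turned under 5 of 14 alternative fits. The adjusted p (edgeR, Benjamini-Hochberg) was 0.996, and without WT 1 the log2 fold change was -0.04.

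The adaptors Irs1 and Irs2 couple the receptor to PI3K. Irs1 (ENSMUSG00000055980, chr1:82233101-82291416, minus strand) was at 10.3, 10.6 and 11.7 CPM in WT and at 12.9, 7.74 and 19.5 CPM in TG. Library TG 2 was below all WT libraries and the other TG libraries above them, so the TG spread (SD 5.90 CPM) far exceeded that of WT (0.747 CPM). Its log2 fold change was 0.24 (SE 0.268), with an adjusted p of 0.721 in edgeR. In the first table alone the log2 fold change was -0.01.

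Irs2 (ENSMUSG00000038894, chr8:10984681-11008458, minus strand) was at 40.3, 48.4 and 56.5 CPM in WT and at 107.1, 47.3 and 133.1 CPM in TG. Both TG 1 and TG 3 were above every WT library, whereas TG 2 lay between WT 1 and WT 2, so the groups overlapped. The means were 48.4 ± 8.12 CPM in WT and 95.8 ± 44.0 CPM in TG (SD, n = 3), and the log2 fold change was 0.95 (SE 0.301). The unadjusted p was 0.0169 and the adjusted p 0.256 in edgeR with Benjamini-Hochberg adjustment. Against the WT mean of its own table, Irs2 was higher by 1.28 on the log2 scale in TG 1, 0.10 in TG 2 and 1.24 in TG 3. Without TG 2 it rose by 1.25 (SE 0.129, edgeR adjusted p = 0.0026), in a fit where 8.82% of 16560 tested genes were called higher and 4.39% lower. Without the filter on low counts it also passed, with a log2 fold change of 0.93 and an edgeR adjusted p of 3.50e-05, where 4.37% of 29725 genes were called higher and 1.25% lower. The SE of Irs2 was then 0.187. Those of Insr, Mtor and Foxo1 were 0.185, 0.185 and 0.186, against 0.159, 0.127 and 0.215 with the filter. The spread of a single gene thus counted little in that fit, and its p-values are to be read with caution. Its smallest edgeR adjusted p over all genes was 1.9e-209. DESeq2 gave 0.94 (SE 0.314) with an adjusted p of 0.0514. Without WT 1 the log2 fold change was 0.92 with an edgeR adjusted p of 0.472, and over all 14 alternatives the log2 fold change ran from 0.60 to 1.25 and the adjusted p from 3.50e-05 to 0.965. The TG libraries with high Irs2, TG 1 and TG 3, are those with the lowest summed beta-cell markers (56340 and 54580 CPM), and TG 2 with Irs2 in the WT range has a beta-marker sum of 224000 CPM. The part of cell makeup in the Irs2 values was not tested.

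The balance of the adaptors was read from the authors' deposited FPKM, which is per length and so allows a ratio of genes within a library. The Irs2 to Irs1 ratio was 5.68, 6.60 and 6.99 in WT and 12.0, 8.83 and 9.87 in TG. Every TG library was above every WT library, TG 2 with its low Irs1 included. The mean log2 ratio was 2.68 ± 0.155 in WT and 3.34 ± 0.222 in TG (SD, n = 3), a difference of 0.66. The two-sided exact permutation p was 0.10, the smallest that 20 arrangements of 3 against 3 allow, and 0.50 after adjustment over the 5 gene pairs compared. This permutation test exchanges libraries across the 2 tables and does not take the table into account. Without WT 1 the difference was 0.58, and an exact permutation p of 0.10 is then the smallest that 10 arrangements allow.

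PI3K pairs a catalytic with a regulatory subunit. Pik3ca, the catalytic subunit p110-alpha (ENSMUSG00000027665, chr3:32397671-32468486, plus strand), was at 60.9, 53.9 and 38.6 CPM in WT and 58.7, 56.7 and 46.9 CPM in TG. In each genotype the library of the second table was lowest, and the groups overlapped. The log2 fold change was 0.10 (SE 0.132), with an edgeR adjusted p of 0.772. Pik3r1, the regulatory subunit p85-alpha (ENSMUSG00000041417, chr13:101680563-101768217, minus strand), was at 72.5, 75.6 and 70.1 CPM in WT and 82.7, 68.0 and 65.6 CPM in TG. Library TG 1 was above and TG 2 and TG 3 below all WT libraries. The log2 fold change was -0.01 (SE 0.133, edgeR adjusted p = 0.972), and it turned positive under 5 of 14 alternatives, at 0.08 with library totals alone. The ratio of Pik3ca to Pik3cb, the other widely expressed catalytic subunit, ran from 3.37 to 4.86 in WT and 3.48 to 3.88 in TG (exact permutation p = 0.90). The ratio of Pik3r1 to Pik3r2 was 0.757 and 0.762 in WT 1 and WT 2 and 0.284 in WT 3, and 0.757, 0.668 and 0.229 in the TG libraries, with an exact permutation p of 0.50. Pik3r2 was 24.5 and 28.4 CPM per kb in the second table in WT 3 and TG 3 and between 9.50 and 10.8 in the first, so the difference in this ratio followed the table in both genotypes. The permutation test leaves the table out and counts that difference as spread between libraries.

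AKT1 and AKT2 are the kinases that PI3K activates. Akt1 (ENSMUSG00000001729, chr12:112653821-112674884, minus strand) was at 159.2, 156.6 and 249.1 CPM in WT and 119.3, 133.8 and 187.8 CPM in TG. In each table the TG libraries were below the WT libraries, although TG 3 stood above WT 1 and WT 2 of the other table. The log2 fold change was -0.35 (SE 0.131), with an unadjusted p of 0.0333 and an edgeR adjusted p of 0.310. The TG libraries were at -0.40, -0.24 and -0.41 against the WT mean of their table on the log2 scale, a narrow spread. Akt2 (ENSMUSG00000004056, chr7:27591552-27640826, plus strand) was at 150.9, 150.6 and 257.9 CPM in WT and 120.6, 149.4 and 158.0 CPM in TG. TG 2 was almost at the level of WT 1 and WT 2, at -0.01 on the log2 scale (151.3 CPM against 151.1 and 147.5 with RLE size factors), and TG 1 and TG 3 were at -0.32 and -0.71. The log2 fold change was -0.34 (SE 0.174) with an edgeR adjusted p of 0.419, and it was -0.16 in the first table alone. TG 1 and TG 3 are also the TG libraries with low beta-marker sums, while WT 3, with the lowest WT sum (116800 CPM), had the highest Akt2 value. The part of cell makeup in the Akt2 values was not tested. Without TG 2 the adjusted p was 0.0821 for Akt1 and 0.0754 for Akt2, the lowest over the alternatives for either gene. Without WT 1 the log2 fold changes were -0.34 and -0.38. The ratio of Akt2 to Akt1 in deposited FPKM ran from 0.545 to 0.595 in WT and 0.483 to 0.642 in TG, and its mean log2 difference was 0.00 with an exact permutation p of 1.0.

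Mtor encodes the kinase of both mTOR complexes (ENSMUSG00000028991, chr4:148448611-148557683, plus strand). It was at 60.9, 64.9 and 94.0 CPM in WT and at 51.7, 48.7 and 62.8 CPM in TG. The TG library was below WT in both tables, though TG 3 stood above WT 1 of the other table. Against the WT mean of their table the TG libraries were at -0.28, -0.37 and -0.58 on the log2 scale. The means were 73.3 ± 18.1 CPM in WT and 54.4 ± 7.40 CPM in TG (SD, n = 3), with a log2 fold change of -0.41 (SE 0.127). The unadjusted p was 0.0146 and the edgeR adjusted p 0.249. Over the 14 alternatives the log2 fold change stayed negative, between -0.46 and -0.32, and it was -0.45 without WT 1. The lowest adjusted p, 0.0849, came without TG 2, so Mtor was called in none of the fits. In TG 2, whose beta-marker sum lay within the WT range, Mtor was at -0.37 on the log2 scale, and Akt1 was at -0.24. The part of cell makeup in these values was not tested.

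Foxo1 encodes the forkhead factor that AKT keeps out of the nucleus (ENSMUSG00000044167, chr3:52268336-52353221, plus strand). It was at 46.4, 40.6 and 46.8 CPM in WT and at 60.1, 34.5 and 49.5 CPM in TG. Library TG 1 was highest and TG 2 lowest of the 6 libraries, on either side of WT. The log2 fold change was 0.11 (SE 0.215, edgeR adjusted p = 0.849), and it turned to -0.15 without TG 1. The ratio of Foxo1 to its paralog Foxo3 was 0.706, 0.584 and 0.614 in WT and 0.649, 0.537 and 0.450 in TG, with overlapping groups and an exact permutation p of 0.30. RNA level does not report on the phosphorylation or the location of FOXO1 or of any of these proteins.

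Without the library labelled WT 1, edgeR called 0 of the 9 genes and 0.0% of all genes after adjustment. Log2 fold changes were then 0.30 for Irs1, 0.19 for Pik3ca, -0.03 for Pik3r1 and 0.17 for Foxo1, and the unadjusted p was 0.0457 for Irs2, 0.0394 for Mtor and 0.121 for Akt1. Of the log2 ratios, TG minus WT, that of Pik3ca to Pik3cb was then 0.07, that of Pik3r1 to Pik3r2 0.07, that of Akt2 to Akt1 -0.02 and that of Foxo1 to Foxo3 -0.15, with exact permutation p-values between 0.50 and 1.0.

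**Figure D2:**
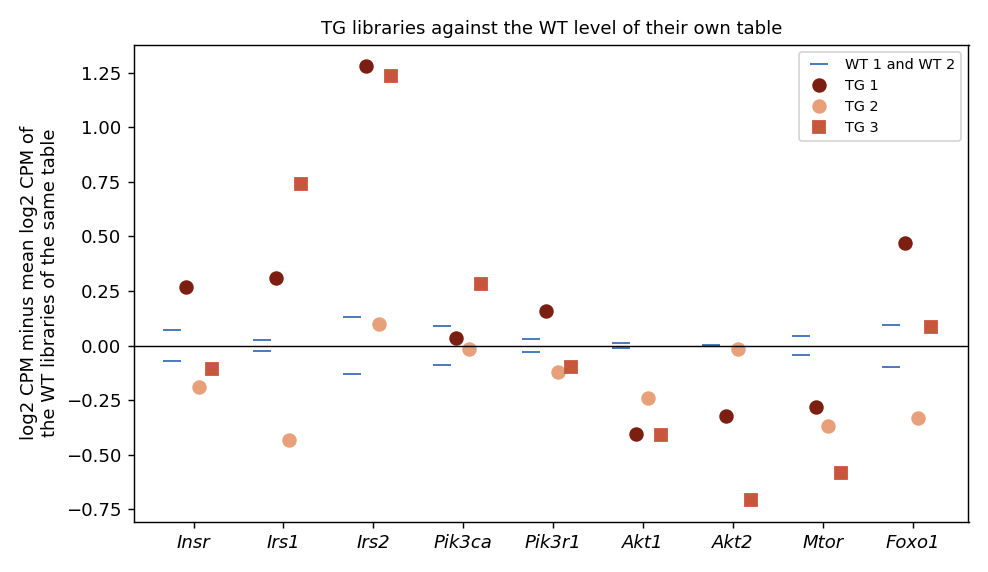
Log2 CPM of each TG library minus the mean log2 CPM of the WT libraries in its own table (y axis) for the 9 genes (x axis), with blue dashes for WT 1 and WT 2 about their mean. TG 1 and TG 3 lie at 1.28 and 1.24 for Irs2 and TG 2 at 0.10, while all 3 TG libraries lie below 0 for Akt1, Akt2 and Mtor. For Akt2 this did not hold for TG 2 with RLE size factors.

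Some of these genes differed between the tables in both genotypes. Akt1 in the second table was 249.1 CPM in WT 3 and 187.8 in TG 3, above every library of its genotype in the first. Mtor and Akt2 also had their highest value of each genotype there, and Pik3ca its lowest. Whether TG differed from WT by the same amount in both tables was tested in edgeR as an interaction, which was not called for any of the 9 genes, with a Benjamini-Hochberg adjusted p of 0.9999 for each and 0 at an unadjusted p under 0.05. The largest difference in size was that of Irs1, at 0.75 (SE 0.542, log2), followed by Akt2 at -0.55 (SE 0.342). The second table has 1 library per genotype, and the first carries all of the spread in this test. It was likewise not called for Trib3 of the pathway lists below, whose difference was -1.90 (SE 0.329, log2). The share over all genes was not counted. The lack of a call therefore does not show that the effect of TG was alike in both tables.

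On the scale of CPM per kb of gene length, which allows levels of genes to be compared, the order in WT was led by the AKT kinases. Akt1 was at 46.0 ± 12.9 and Akt2 at 26.2 ± 8.68 CPM per kb (SD, n = 3). Irs2 (7.65 ± 1.29), Mtor (7.25 ± 1.79) and Pik3r1 (7.22 ± 0.272) followed with overlapping ranges. Pik3ca (5.63 ± 1.26) and Foxo1 (5.14 ± 0.400) overlapped each other, and Insr (4.06 ± 0.482) and Irs1 (1.19 ± 0.0817) came last. The range of Pik3ca (4.24 to 6.71) also overlapped those of Irs2, Mtor and Insr. In WT 3, Insr (4.57) was above Pik3ca (4.24). The range of Insr was apart from those of Foxo1 and Irs1. In TG the order began with Akt1 at 35.9 ± 8.81 CPM per kb, Akt2 at 20.01 ± 2.74 and Irs2 at 15.2 ± 6.96. The ranges of Irs2 and Akt2 overlapped there, which they did not in WT. Mtor stood at 5.38 ± 0.732, seventh in the order, next to Foxo1 at 5.54 ± 1.49. Insr (4.05 ± 0.650) and Irs1 (1.47 ± 0.645) were again last.

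For each of the 9 genes, the gene with the most similar course over the 6 libraries was found as the smallest root mean square (RMS) difference of centred log2 CPM, among tested genes with a mean of at least 10 CPM. For Irs2 it was Nol4l (RMS 0.0432), at 14.8, 17.3 and 19.6 CPM in WT and 40.8, 17.6 and 47.6 CPM in TG, with TG 2 again at the WT level. Within the pathway lists below it was Trib2 (RMS 0.113), a pseudokinase that binds AKT, at 6.53, 7.66 and 8.58 CPM in WT and 17.9, 7.07 and 17.5 CPM in TG. Over all genes, Akt1 was matched by Stk11ip (0.0401), Akt2 by Arfgap1 (0.0303) and Mtor by Nacc1 (0.0457). Within the pathway, Akt1 and Akt2 were both nearest to Ptprf (0.0760 and 0.136), a receptor tyrosine phosphatase, and Mtor to Gabarapl1 (0.117). The nearest genes of Insr were Zc3h13 (0.0306) and, within the pathway, Eif4ebp2 (0.118), which was also nearest to Foxo1 (0.0914) beside Tmem131 (0.0818) over all genes. Irs1 was nearest to Auts2 (0.0429) and Foxo3 (0.167), Pik3ca to Cdc5l (0.0301), and Pik3r1 to Vhl (0.0319) and Usp7 (0.0490). These distances describe the same 6 libraries and carry no test.

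Around the 9 genes, 107 other genes of the pathway were described in 6 lists, and 104 of them passed the filter on low counts. The 3 that did not were Irs4, Trim63 and Igfbp1. Of the 104, 59 were higher and 45 lower in TG by sign, against 7723 and 8349 over all genes tested. At an unadjusted p under 0.05, 15 were higher and 9 lower (against 9.32% and 4.81% of all genes), and 0 passed after edgeR's Benjamini-Hochberg adjustment. The median log2 fold change was 0.06, against -0.01 over all genes. In 16 genes every TG library was above and in 14 every TG library was below the WT libraries of its table (13.0% and 13.4% of all genes). The values below therefore describe these libraries.

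At the level of the receptor, 15 of 16 listed relatives, adaptors and brakes were tested. Of these, 4 were higher in TG and 3 were lower at unadjusted p under 0.05, with a median log2 fold change of 0.01. Over all genes the shares were 9.32% and 4.81%, which also stand beside the counts of the lists that follow. Enpp1, a membrane enzyme that can bind and inhibit the insulin receptor, was at 1.62, 2.46 and 1.58 CPM in WT and 21.1, 4.80 and 13.9 CPM in TG. All TG libraries were above all WT libraries, at a log2 fold change of 2.82 (SE 0.562, edgeR adjusted p = 0.199). Sh2b2 and Grb14, adaptors that bind the receptor, were at 0.87 and 0.59. Igf1r, the receptor for insulin-like growth factor I, was at 250.9, 258.0 and 345.0 CPM in WT and 100.4, 199.5 and 71.1 CPM in TG, lower in every TG library. Its log2 fold change was -1.26 (SE 0.385, edgeR adjusted p = 0.248), and those of the insulin receptor-related receptor Insrr and of Ptprf were -0.72 and -0.38. Per length, Igf1r was at 15.0 to 20.6 CPM per kb in WT and 4.24 to 11.9 in TG, against 3.62 to 4.57 and 3.33 to 4.58 CPM per kb for Insr, so that the 2 receptor genes were apart in every WT library and next to each other in TG 3 (4.24 against 4.25).

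Among 15 other PI3K subunits and inositol lipid phosphatases, all tested, 3 were higher and 1 lower at that level, with a median of 0.06. Pik3c2b, a class II PI3K, was at 1.16, Pik3ip1, an inhibitor of PI3K, at 0.70 and the lipid phosphatase Inppl1 at 0.36 on the log2 scale. Inpp4a, which removes a phosphate from the lipid product of PI3K signalling, was at 156.3, 175.6 and 182.0 CPM in WT and 94.9, 123.7 and 99.3 CPM in TG. The groups did not overlap, and the log2 fold change was -0.69 (SE 0.160, edgeR adjusted p = 0.199). The AKT list (16 of 16 tested) had 2 higher and 0 lower, with a median of 0.09: Trib2 at 0.89 and the AKT-related kinase Sgk3 at 0.42.

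The mTOR list (22 of 22 tested) had 2 higher and 3 lower genes and a median of -0.02. The autophagy kinase Ulk1 was at 0.77 and Prr5, a subunit of mTOR complex 2 with a WT mean under 1 CPM, at 1.02. The lower genes were the Rag GTPase Rragc (-0.49) and both partners of the tuberous sclerosis complex that restrains mTOR, Tsc1 (-0.35) and Tsc2 (-0.33). In 6 of the 22 every TG library was below the WT libraries of its table, and in 1 every TG library was above (13.4% and 13.0% of all genes).

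Of 10 other FOXO factors and cofactors, all tested, 1 was higher and 0 lower, with a median of 0.02. That gene was Ppargc1a, a coactivator of mitochondrial genes, at 3.19, 3.26 and 1.31 CPM in WT and 7.86, 6.07 and 2.99 CPM in TG. Each TG library was above the WT libraries of its table, with a log2 fold change of 1.13 (SE 0.242, edgeR adjusted p = 0.199). Of 28 genes reported as FOXO targets, of which G6pc2 is also among the beta-cell markers, 26 were tested. By sign 16 were higher and 10 lower (7723 and 8349 over all genes tested), with a median log2 fold change of 0.28. At an unadjusted p under 0.05, 3 were higher and 2 lower (against 9.32% and 4.81% of all genes). Txnip, which binds thioredoxin and is known for its induction by glucose in beta cells, was at 89.9, 71.9 and 37.0 CPM in WT and 264.4, 95.5 and 400.9 CPM in TG, at a log2 fold change of 1.88 (SE 0.579, edgeR adjusted p = 0.249). Its lowest TG value was again in TG 2. The cyclin Ccng2 was at 0.78 and the ubiquitin ligase Fbxo32 at 0.84, while Sesn3, a sestrin that restrains mTOR complex 1, was at -0.45 and the autophagy gene Gabarapl1 at -0.34. The genes of this list are also set by other factors, so their values do not measure FOXO1 activity.

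**Figure D3:**
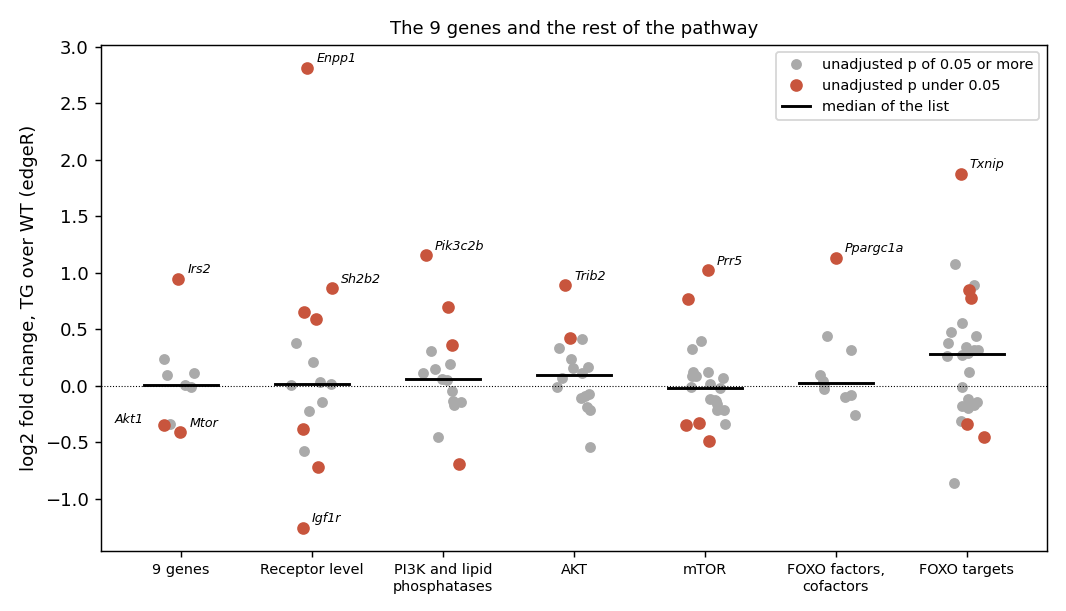
Log2 fold change of TG over WT from edgeR (y axis) for the 9 genes and 6 lists of the surrounding pathway (x axis), each point a gene, red where the unadjusted p is under 0.05, with a bar for the median of the list. Medians lie between -0.02 and 0.28, Enpp1 (2.82), Txnip (1.88) and Igf1r (-1.26) stand farthest from 0, and no gene passed after adjustment.

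As for Irs2, calls in the pathway changed with the library TG 2, whose beta-marker sum lay within the WT range, and with the filter on low counts. Without TG 2, 15 of the pathway genes were called higher and 6 lower by edgeR after adjustment (against 8.82% and 4.39% of all genes). Enpp1 (3.26, adjusted p = 0.00103), Txnip (2.47, 0.00944) and Trib2 (1.20, 0.00832) rose in that edgeR fit, and Igf1r fell by 1.74 on the log2 scale with an adjusted p of 0.00589. With all 6 libraries and no filter on low counts, edgeR called 11 of the pathway genes higher and 4 lower (against 4.37% and 1.25% of all genes), among them Enpp1, Txnip and Trib2 higher and Igf1r lower. The caution given for Irs2 in that fit holds for these calls too. DESeq2 with all 6 libraries called Enpp1, Ppargc1a and Ccng2 higher and Igf1r, Inpp4a and Sesn3 lower, and none of the 9 genes (4.97% of all genes were called). Without WT 1, edgeR called 0 of the pathway genes, and the log2 fold changes were 2.71 for Enpp1, 2.17 for Txnip, 0.85 for Trib2 and -1.43 for Igf1r. In raw reads, not scaled for library size, Mir203 had 170 in TG 1, 164 in TG 2 and 150 in TG 3, of 27110459, 27482339 and 21615905 counts.

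**Figure D4:**
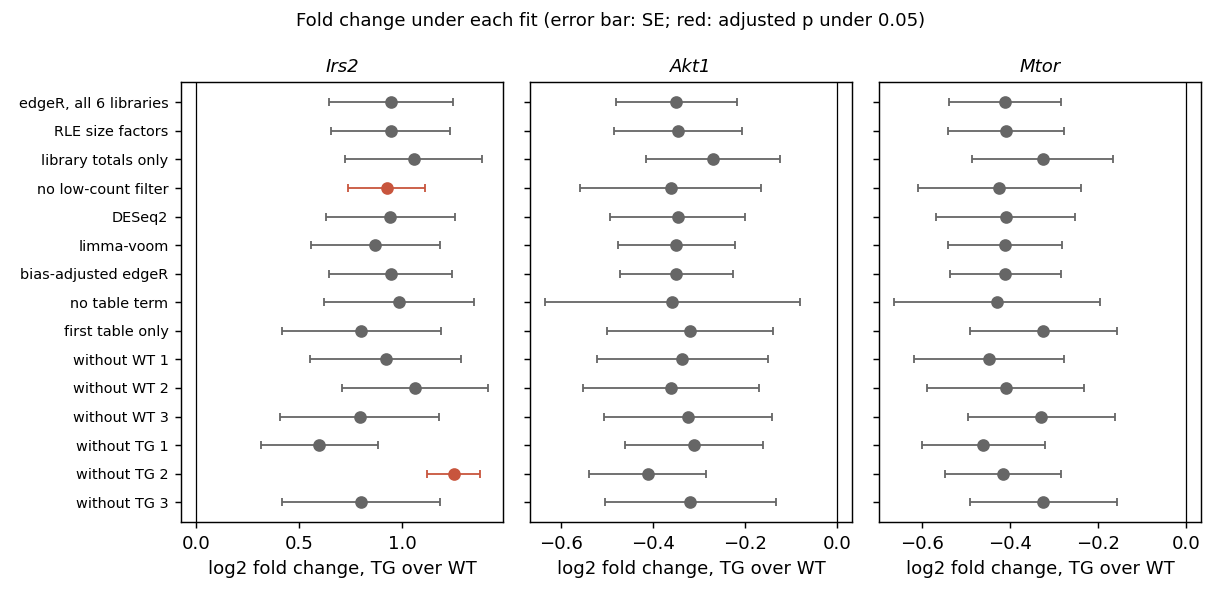
Log2 fold change of TG over WT (x axis, bars are SE) for Irs2, Akt1 and Mtor under the edgeR test and its 14 alternatives (y axis), red where the adjusted p is under 0.05. Irs2 lies between 0.60 and 1.25 and is red without the low-count filter and without TG 2, while Akt1 and Mtor lie below 0 in every fit and are red in none.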

How the data were processed

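For the RNA selection, the read counter, the strand setting and the annotation release, nothing is given in the sources used here. Reads of overlapping or antisense genes therefore cannot be told apart. Libraries were made with a NEBNext Ultra kit from 3 µg of RNA, per the labels' protocols. The submitters' processing notes name CASAVA 1.8, HISAT2 and the mouse build GRCm38 (mm10). The authors deposited whole-number raw counts per gene in 2 tables, FPKM values made separately for each table, and gene lengths and coordinates, per the file headers. No column of sample values was left unmapped (0).

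The raw counts of the 2 tables were matched by gene identifier, and edgeR 4.0.16 (R 4.3.3) was run on all of them: filterByExpr by genotype, TMM factors, quasi-likelihood F-test, table and genotype as terms, 16072 genes tested, Benjamini-Hochberg adjustment over all of them with a threshold of 0.05. The SE was taken as the size of the log2 fold change over the square root of its F value. CPM uses TMM-scaled totals, and CPM per kb divides by the deposited length. The fit was tested on simulated data, drawn without a table effect and without a spread of its own for each gene. That test does not show how the fit performs on these libraries. DESeq2 1.42.0 and limma 3.58.1 (voom) served as alternatives. Ratios of deposited FPKM within a library were compared by an exact two-sided permutation test over 20 arrangements, which does not take the table into account.

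The 9 genes, the pathway and marker lists and the tests were chosen with earlier results of these data known. Named besides the 9 genes are, per pathway list, up to 3 genes per direction with the smallest unadjusted p under 0.05, and the nearest genes by RMS difference. Some genes of these lists are not reported here. Values of Pik3cb, Pik3r2, Foxo3, Trib3, single cell-type markers and the genes that failed the filter are given beside these as paralogs, examples or exceptions. Sequences came from RefSeq and GENCODE M21 tables of GRCm38. No promoter window was at hand for Insr, and no protein sequences were used here.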

Additional observations from a re-analysis of the deposited data

How the results depend on the processing

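Fold changes and counts of calls were recomputed under 14 alternatives (2 scalings, no low-count filter, 3 other tests, no table term, the first table alone, and each library left out). Leaving out WT 3 or TG 3 leaves 1 library in the second table, which the table term takes up. These fits nearly repeat the first table alone (Irs2 at 0.7953, 0.8013 and 0.8021), so the 14 are not all separate. Irs2, Pik3ca, Akt1, Akt2 and Mtor kept their direction in all 14. Irs2 passed the threshold in 2 of them, and for the fit without the low-count filter the caution given above holds. Insr turned to -0.0137 without the filter, -0.0094 with limma-voom and -0.0025 without the table term, and ran from -0.1548 to 0.1045 over the fits that leave out 1 library (-0.0409 without WT 1). Irs1 was -0.0107 in the first table alone and ran from -0.0168 to 0.4913 over the left-out libraries. Pik3r1 was 0.0759 with library totals and 0.0266 in the first table alone, and -0.1109 to 0.0462 over the left-out libraries. Foxo1 ran from -0.1517 (without TG 1) to 0.2994. The number of the 9 genes called higher was 1 without the filter and 0 to 1 over the left-out libraries. Under RLE size factors, 1 of the 9 (Irs2) had every TG library above WT of its table, against 0, and 2 had every TG library below, against 3, as Akt2 no longer did. Pathway genes called were 11 higher and 4 lower without the filter, 3 and 3 with DESeq2, and 0 to 15 and 0 to 6 over the left-out libraries. Over all genes the calls were 1300 higher and 372 lower without the filter, 616 and 136 with DESeq2, and 0 to 1461 and 0 to 727 over the left-out libraries, with the upper values without TG 2. The causes were not tested. The paralog ratios were the same from counts per kb as from deposited FPKM, which is no separate check, since the library total cancels in a ratio within a library. Without WT 1, a setting chosen after seeing the data, the log2 ratios turned to -0.0217 for Akt2 to Akt1, 0.0709 for Pik3ca to Pik3cb and 0.0666 for Pik3r1 to Pik3r2. No paired analysis was possible because the labels give WT and TG no shared replicate numbers. Where a left-out library leaves 1 of its genotype in the first table, that lone library is assumed to vary like the rest.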
